A study of Homo sapiens with 8 samples.

Results

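The genes described here encode the enzymes that place methyl groups on the lysine and arginine side chains of histones and other proteins, and the enzymes that take them off again. They were chosen by name. A row of the expression table was taken when its symbol began with KMT, KDM, SETD, PRMT, SUV, EHMT, WHSC1 or SMYD, began with NSD followed by a digit, was EZH1 or EZH2, or was DOT1L, PHF8 or CARM1. The rule found 61 of the 14526 genes in the table, of which 59 are protein coding and 2 are antisense RNAs, KMT2E-AS1 and KDM4A-AS1, that carry the name of a neighbouring enzyme. RNA was sequenced from cells labelled HepG2, a human line derived from a liver tumour, grown in DMEM with 10% serum. A control group of 4 untreated biological replicates was compared with an SB-treated group of 4 replicates that received 10 mM sodium benzoate (SB), a food preservative and drug that cells convert to benzoyl-CoA, for 24 h before harvest. The sources name no vehicle for the controls and no genetic change in either group, and the comparison asks how the RNA of these enzymes differed after SB, at 1 dose and 1 time in 1 line.

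Lysine methyltransferases mostly use a SET domain to transfer a methyl group from S-adenosylmethionine, and the effect of the mark depends on the residue. Methylation of histone H3 at K4, K36 and K79 is found at active promoters, enhancers and transcribed gene bodies, whereas methylation of H3K9, H3K27 and H4K20 is associated with silenced or compacted chromatin. Protein arginine methyltransferases (PRMTs) modify histones and many RNA-binding proteins. Demethylases remove the lysine marks either with a flavin-dependent amine oxidase domain (KDM1A and KDM1B) or with an iron- and oxoglutarate-dependent JmjC domain (the other KDM proteins and PHF8).

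Expression was deposited as RPKM, the reads of a gene scaled to its counted length in kilobases and to the size of its library, and every difference is given as SB-treated minus control on the scale log2(RPKM + 1) with its standard error (SE). Values of adjusted p come from limma, fitted to all 14526 genes and adjusted over all of them by the method of Benjamini and Hochberg. A gene is called higher or lower when its adjusted p is below 0.05. The 8 libraries held 37010896 to 44903216 reads, and the members' mean control levels ran from 1.13 to 133 RPKM. Control replicate 1 stood apart from the other controls: of 122 sets of 4 replicate values for the members, 16 had an outlying value and 15 of these were control replicate 1. Its deviation from the other 3 controls had a Pearson correlation with the GC percentage of the gene of -0.851 over the 61 members and of -0.697 over 14090 genes, given as a description because genes of 1 library are not independent. The part of base composition in the results was not tested beyond the values given beside them. The authors' TMM scaling factors ran from 0.956 to 0.968 in the controls and from 1.03 to 1.04 in the SB-treated libraries. Scaling the libraries to equal RPKM totals moved the median of all genes from 0.00 to 0.14 on the log2 scale, so a difference in that scaling is read against 0.14.

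The label of the cells was compared with marker genes. Of 20 hepatocyte markers listed, 17 had no row in the table used here, from which genes not above 1 CPM in 2 or more samples had been removed. Among those with a row, transferrin (TF) had a mean of 0.192 RPKM in the controls and 0.379 RPKM after SB, and the transcription factor FOXA1 0.963 and 1.32 RPKM, and both were called higher. Albumin (ALB), alpha-fetoprotein (AFP) and the apolipoproteins APOA1 and APOB, which define hepatocyte-derived cells, were among the 17. As far as these rows go, the marker levels go against the label HepG2. Of 8 fibroblast markers, 4 had a row and summed to 6.63 to 8.97 RPKM in the controls and 6.62 to 6.98 RPKM after SB. Of 6 blood cell markers, 2 had a row and summed to 2.01 to 2.37 RPKM and 1.99 to 2.29 RPKM. The part of these cell types in the results was not tested, and in bulk RNA a change in the mix of cells and a change in RNA per cell cannot be told apart.

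Of the 61 members, 25 were higher after SB, 21 were lower and 15 did not pass the threshold, a split that became 37 higher and 10 lower with equal RPKM totals and 23 and 30 after correction for GC content and length. Over all genes, 33.0% were called higher, 32.6% lower and 65.6% in either direction, so most transcripts of this table moved by a small, reproducible amount. The members' median difference was 0.04 on the log2 scale and their median absolute difference was 0.24, against 0.20 for all genes. Differences ran from -0.45 for PRMT5 to 0.63 for PRMT2. A called difference of at least 0.5 in either direction was found for 3 members (PRMT2, KMT2B and KMT2D), against 10.6% of all genes, and for 13 with equal RPKM totals and 0 by limma after correction for GC content and length. The 4 SB-treated values lay wholly above the 4 control values for 24 members and wholly below them for 22, where the shares of all genes were 31.0% above, 30.5% below and 61.5% for either.

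**Figure D1:**
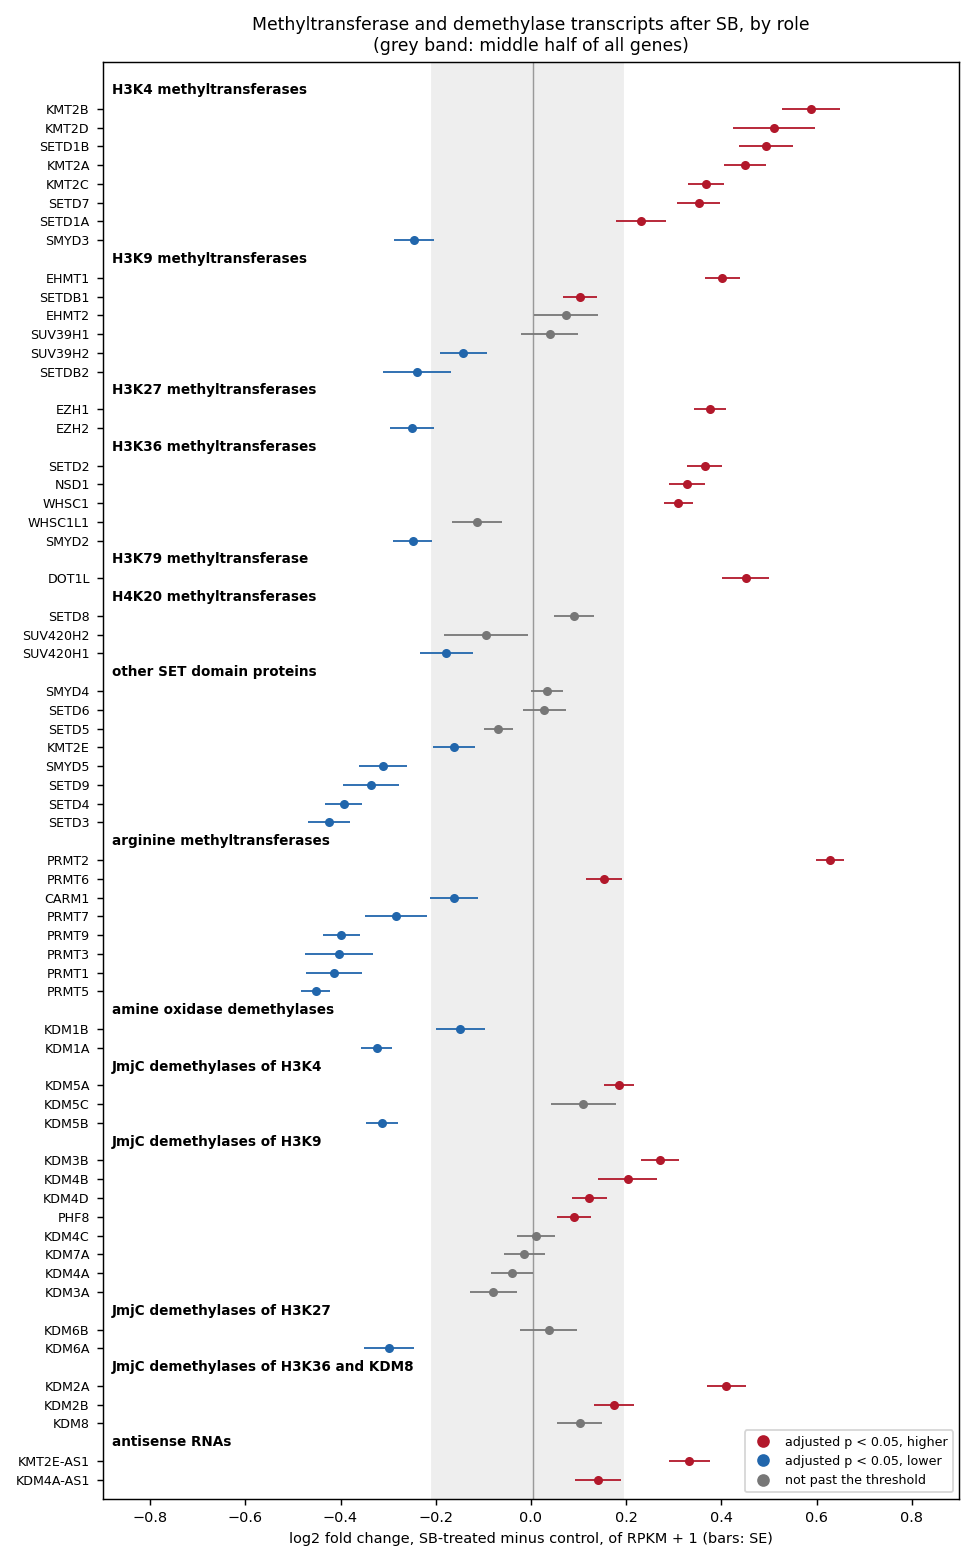
Difference between SB-treated and control libraries for each of the 61 members, grouped by role, as log2 of RPKM + 1 with bars of 1 SE (4 replicates per group, limma). The grey band spans the central part of all genes, between their lower and upper quartiles. The H3K4 methyltransferases stand to the right except SMYD3 at -0.24, and 6 of the 8 arginine methyltransferases stand to the left. Of these, CARM1 lies at 0.023 with equal RPKM totals, where the median of all genes is 0.14.

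The 250 bases before the RefSeq transcription start are shown for the 6 enzymes on which the account turns, the strongest rise and fall among the PRMTs, the most abundant PRMT, the strongest rise among the lysine methyltransferases and the EZH1 and EZH2 pair that moved in opposite directions. All are from GRCh38.p14 and read 5′ to 3′ on the strand of the gene, and capitals mark GC boxes (GGGCGG or its reverse complement CCGCCC) and CCAAT boxes (CCAAT or its reverse complement ATTGG). The RefSeq starts differ from those of the gene spans given below, which come from the GENCODE annotation. The PRMT1 window lies wholly inside the span of its gene, and each of the other windows runs into the start of its span.
PRMT2, chr21:46635424-46635673, plus strand: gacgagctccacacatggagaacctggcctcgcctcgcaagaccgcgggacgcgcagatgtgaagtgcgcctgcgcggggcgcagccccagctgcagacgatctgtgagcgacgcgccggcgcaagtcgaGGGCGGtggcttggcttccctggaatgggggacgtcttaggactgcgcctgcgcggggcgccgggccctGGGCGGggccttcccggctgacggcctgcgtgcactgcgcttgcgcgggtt
KMT2B, chr19:35717753-35718002, plus strand: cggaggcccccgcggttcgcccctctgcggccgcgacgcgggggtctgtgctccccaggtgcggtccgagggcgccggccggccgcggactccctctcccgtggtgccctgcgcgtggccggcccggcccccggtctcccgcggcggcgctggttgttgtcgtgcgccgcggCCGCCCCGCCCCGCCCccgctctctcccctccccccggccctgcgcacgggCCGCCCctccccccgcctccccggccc
PRMT5, chr14:22929377-22929626, minus strand: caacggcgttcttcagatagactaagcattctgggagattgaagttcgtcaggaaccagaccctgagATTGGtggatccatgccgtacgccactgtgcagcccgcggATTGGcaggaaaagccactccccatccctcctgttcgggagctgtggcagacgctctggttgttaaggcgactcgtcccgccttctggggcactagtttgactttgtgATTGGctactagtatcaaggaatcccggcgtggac
PRMT1, chr19:49677021-49677270, plus strand: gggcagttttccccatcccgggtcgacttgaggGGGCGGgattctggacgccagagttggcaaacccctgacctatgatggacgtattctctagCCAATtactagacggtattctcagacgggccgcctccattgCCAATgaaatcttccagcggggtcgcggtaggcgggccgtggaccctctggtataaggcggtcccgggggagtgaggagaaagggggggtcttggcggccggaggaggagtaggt
EZH1, chr17:42745041-42745290, minus strand: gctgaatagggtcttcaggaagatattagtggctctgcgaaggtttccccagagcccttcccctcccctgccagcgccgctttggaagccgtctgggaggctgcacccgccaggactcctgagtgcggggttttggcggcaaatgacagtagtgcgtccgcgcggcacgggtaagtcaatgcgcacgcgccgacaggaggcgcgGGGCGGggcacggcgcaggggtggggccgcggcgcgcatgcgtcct
EZH2, chr7:148884292-148884541, minus strand: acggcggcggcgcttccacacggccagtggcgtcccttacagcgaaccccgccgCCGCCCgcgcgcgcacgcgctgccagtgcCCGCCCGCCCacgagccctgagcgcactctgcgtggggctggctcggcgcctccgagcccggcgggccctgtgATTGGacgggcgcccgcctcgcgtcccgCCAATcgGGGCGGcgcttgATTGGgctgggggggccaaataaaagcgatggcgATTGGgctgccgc

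These windows differed in composition. The KMT2B window was 84.4% G or C, with 40 CpG dinucleotides and 4 GC boxes, and that of PRMT2 was 72.0% G or C with 32 CpG and 2 GC boxes. The PRMT5 window was 55.6% G or C with 14 CpG, no GC box and 3 CCAAT boxes. The EZH1 window held 26 CpG and 1 GC box with no CCAAT box, whereas the EZH2 window held 38 CpG, 4 GC boxes and 4 CCAAT boxes.

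Windows of this kind were found in RefSeq for 58 of the 61 members. Their median GC content was 66.6% with 25.5 CpG, against 58.0% and 11 over 27305 promoters. Those 27305 promoters were not limited to genes with a row in the expression table. On either strand, GGGCGG was present in 44 of the 58 windows (75.9%, against 42.3% of all promoters), in 16 of 23 members called higher and 19 of 21 called lower. CCAAT was present in 32.8% of member windows and 33.0% of all. The letters CGGAAG, a core of ETS factor sites, were found in 31.0% and 16.8%, the E-box CACGTG in 17.2% and 6.49%, and TATAAA in 0 of 58 and 11.1%. These are matches of letters only, in members that moved both ways.

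Of the 8 methyltransferases of H3K4, 7 were higher and 1 was lower, with a median of 0.41, where 33.0% of all genes were called higher. KMT2A and KMT2B (MLL proteins that methylate H3K4 at promoters), KMT2C and KMT2D (which place the monomethyl mark of enhancers), SETD1A and SETD1B (catalytic subunits of the COMPASS complexes) and SETD7 (a monomethyltransferase) were higher. SMYD3, for which substrates outside histones are also known, was lower by 0.24, and did not pass with equal RPKM totals or after correction for GC content and length. After correction for GC content and length, 6 of the 8 were higher and 0 were lower by limma, and with equal RPKM totals 7 were higher and 0 lower.

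KMT2B (hg38 chr19:35717973-35738880, plus strand) measured 6.88, 8.57, 8.03 and 8.38 RPKM in control replicates 1 to 4 and 12.04, 12.87, 12.66 and 12.21 RPKM in SB-treated replicates 1 to 4. The lowest SB-treated library was above the highest control, and control replicate 1 was the lowest of all. The difference was 0.59 ± 0.060 (SE, limma adjusted p = 2.31e-05), a 1.56-fold rise of the mean RPKM from 7.96 ± 0.759 to 12.4 ± 0.386 (SD, n = 4). It was 0.34 after correction for GC content and length.

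KMT2D (hg38 chr12:49018975-49060794, minus strand) measured 10.8, 14.3, 14.7 and 14.6 RPKM in the controls and 19.8, 20.2, 19.7 and 18.9 RPKM after SB. The groups did not overlap, and control replicate 1 lay well below the other 3 controls. The difference was 0.51 ± 0.086 (limma adjusted p = 0.00057), 0.41 without control replicate 1 and 0.28 after correction for GC content and length.

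SETD1B (hg38 chr12:121804009-121832656, plus strand) measured 5.14, 6.43, 5.86 and 6.21 RPKM in the controls and 8.61, 8.93, 8.80 and 8.50 RPKM after SB. Every SB-treated library was above every control, and the difference was 0.49 ± 0.057 (limma adjusted p = 5.09e-05), or 0.26 after correction for GC content and length. Its paralog SETD1A rose by 0.23 (limma adjusted p = 0.0034), and the corrected value of SETD1A was 0.02, which did not pass.

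KMT2A (hg38 chr11:118436456-118526832, plus strand) measured 17.9, 19.5, 18.3 and 20.4 RPKM in the controls and 27.1, 25.7, 26.7 and 25.8 RPKM after SB. The groups did not overlap and the spread among the SB-treated libraries was small against the gap. The difference was 0.45 ± 0.045 (limma adjusted p = 2.02e-05), and 0.31 after correction.

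KMT2C rose by 0.37, from 11.3 to 14.8 RPKM (limma adjusted p = 2.56e-05), but it has near-identical copies in the genome, so its level is uncertain. SETD7 rose by 0.35, from 33.3 to 42.7 RPKM.

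The enzymes of H3K36 and H3K79, marks of transcribed gene bodies, included 4 that rose. DOT1L, the methyltransferase of H3K79, which has no SET domain (hg38 chr19:2163933-2232578, plus strand), measured 12.4, 13.7, 14.2 and 13.2 RPKM in the controls and 17.4, 19.1, 19.2 and 18.7 RPKM after SB. All SB-treated libraries exceeded all controls. The difference was 0.45 ± 0.049 (limma adjusted p = 3.31e-05) and 0.22 after correction for GC content and length.

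SETD2, which trimethylates H3K36 and travels with RNA polymerase II (hg38 chr3:47016428-47164113, minus strand), measured 16.7, 16.3, 15.4 and 15.8 RPKM in the controls and 21.4, 20.4, 21.3 and 20.8 RPKM after SB. The groups were well separated, with a difference of 0.36 ± 0.036 (limma adjusted p = 1.93e-05). NSD1 and WHSC1 (also known as NSD2), which place the dimethyl mark, rose by 0.33, from 27.4 to 34.7 RPKM, and by 0.31, from 18.5 to 23.2 RPKM. WHSC1L1 (NSD3) differed by -0.11, which did not pass the threshold, and was at 0.064 with equal RPKM totals. SMYD2, which also methylates p53, was lower by 0.25, and by 0.071 with equal RPKM totals, which did not pass. Of the 5 genes placed with H3K36, 3 were therefore higher and 1 lower, with a median of 0.31. After correction for GC content and length, SETD2 was at 0.26, NSD1 at 0.18, WHSC1 at 0.18, SMYD2 at -0.11 and WHSC1L1 at -0.19, so that 3 were higher and 2 lower with a median of 0.18.

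The H3K9 methyltransferases moved both ways, with 2 of 6 higher and 2 lower, where the shares of all genes were 33.0% and 32.6%. After correction for GC content and length, 1 was higher and 3 lower. EHMT1 (GLP), which acts as a heterodimer with EHMT2 (G9a) in mono- and dimethylation of H3K9, rose. EHMT1 (hg38 chr9:137618992-137870016, plus strand) measured 12.003, 12.726, 12.202 and 12.699 RPKM in the controls and 16.8, 17.1, 16.0 and 16.9 RPKM after SB. No library of the groups overlapped, and the difference was 0.40 ± 0.036 (limma adjusted p = 1.08e-05). EHMT2 differed by 0.07 and did not pass. After correction for GC content and length EHMT2 was at -0.13 and was called lower (limma adjusted p = 0.0023). Its counted length of 28320 bases is far above the 4129 bases of its longest GENCODE transcript, so its RPKM level cannot be set beside that of EHMT1.

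SETDB1 and SETDB2, which contain a split SET domain, were called in opposite directions. SETDB1, which is recruited with KRAB zinc finger proteins to silence retroelements (hg38 chr1:150926263-150964744, plus strand), measured 18.90, 19.83, 20.04 and 20.61 RPKM in the controls and 21.4, 21.6, 21.5 and 21.0 RPKM after SB. The groups did not overlap, although the gap was narrow. The difference of 0.10 ± 0.036 (limma adjusted p = 0.0277) was 0.02 after correction for GC content and length and did not then pass.

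SETDB2 (hg38 chr13:49444274-49495003, plus strand) measured 7.31, 5.46, 5.70 and 5.73 RPKM in the controls and 4.91, 4.93, 4.89 and 5.04 RPKM after SB. Control replicate 1 was far above the other 3 controls, and all controls were above all SB-treated libraries. The difference was -0.24 ± 0.072 (limma adjusted p = 0.0148) and -0.16 without control replicate 1, and it did not pass with equal RPKM totals (-0.081). Of the pair that trimethylates H3K9 in pericentric heterochromatin, SUV39H2 was called lower at -0.14 (limma adjusted p = 0.0281), which became 0.037 with equal RPKM totals, and SUV39H1, at 0.04, did not pass.

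EZH1 and EZH2 are the alternative catalytic subunits of Polycomb repressive complex 2 (PRC2), the methyltransferase of H3K27, and EZH2 is usually the more abundant in dividing cells. EZH1 rose and EZH2 fell. EZH1 (hg38 chr17:42700275-42745049, minus strand) measured 8.16, 8.36, 7.99 and 8.25 RPKM in the controls and 10.81, 11.01, 11.27 and 10.63 RPKM after SB. The controls lay close together and below every SB-treated library. The difference was 0.38 ± 0.033 (limma adjusted p = 9.25e-06), a 1.33-fold rise, and 0.30 after correction for GC content and length.

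EZH2 (hg38 chr7:148807257-148884321, minus strand) measured 51.9, 45.8, 45.4 and 46.8 RPKM in the controls and 40.3, 39.2, 39.4 and 39.9 RPKM after SB. Every control was above every SB-treated library, with control replicate 1 the highest. The difference was -0.25 ± 0.046 (limma adjusted p = 0.000942), with the mean going from 47.5 ± 3.04 to 39.7 ± 0.538 RPKM (SD, n = 4). With equal RPKM totals it was -0.07, against a median of all genes of 0.14, and did not pass. After correction for GC content and length it was -0.17 and passed.

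The ratio of EZH1 to EZH2 within a library does not depend on how libraries are scaled. It rose from 0.173 to 0.275 (geometric means), and its log2 value from -2.53 ± 0.094 to -1.86 ± 0.051 (SD, n = 4), a difference of 0.67 (exact permutation test, two-sided, p = 0.0286, the smallest that 4 against 4 allows). The ratio of every SB-treated library exceeded that of every control. After correction for GC content and length the log2 difference was 0.47, with the same exact p.

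Of the 9 other subunits of PRC2 that were listed, 2 were higher, 5 lower and 2 did not pass, with a median of -0.22. The shares of all genes were 33.0% higher and 32.6% lower. With equal RPKM totals, which made 75.4% of all calls higher, 3 subunits were higher and 3 lower. The 2 that rose are accessory subunits: PHF19 rose by 0.77, from 8.62 ± 1.004 to 15.4 ± 0.322 RPKM (SD, n = 4), and PHF1 by 0.48, from 2.67 to 4.10 RPKM. Of the other accessory subunits, named here after their values were seen, JARID2 was lower by 0.42 and MTF2 by 0.27. AEBP2, at -0.12, did not pass. The core subunits, named here after their values were seen, were EED at -0.33, RBBP7 at -0.42 and RBBP4 at -0.22, all called lower, and SUZ12 at 0.04, which did not pass.

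The H4K20 enzymes changed little. SUV420H1 (KMT5B), which makes the di- and trimethyl marks (hg38 chr11:68154863-68213852, minus strand), measured 8.34, 7.27, 7.17 and 6.84 RPKM in the controls and 6.77, 6.23, 6.38 and 6.30 RPKM after SB. The lowest control was just above the highest SB-treated library. The difference was -0.18 ± 0.055 (limma adjusted p = 0.017), and -0.014 with equal RPKM totals, which did not pass. SUV420H2 (KMT5C), at -0.09, and SETD8 (KMT5A), the monomethyltransferase, at 0.09, did not pass.

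Among 8 further SET domain proteins, whose known substrates lie mostly outside histones or are unsettled, 5 were lower and 0 were higher by limma, with a median of -0.24, where 32.6% of all genes were lower and 33.0% higher. SETD3, an actin histidine methyltransferase (hg38 chr14:99397748-99480889, minus strand), measured 23.9, 21.8, 21.8 and 21.6 RPKM in the controls and 17.0, 15.5, 16.7 and 16.2 RPKM after SB. Control replicate 1 was the highest control, and the groups were far apart. The difference was -0.42 ± 0.045 (limma adjusted p = 2.84e-05). SETD4, SETD9 and SMYD5 were lower by 0.39, 0.34 and 0.31. KMT2E, a relative of the MLL proteins, was lower by 0.16, and lay at 0.011 with equal RPKM totals, where the median of all genes was 0.14. In that scaling the 8 split into 3 higher and 4 lower.

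Of the 8 PRMTs, 2 were higher and 6 lower, with a median of -0.34. The shares called lower were 32.6% of all genes and 40.2% of those of 1500 to 3000 bases. With equal RPKM totals the PRMT count was 2 higher and 4 lower, because CARM1 then lay at 0.023 and PRMT7 no longer passed. The median of all genes in that scaling was 0.14. After correction for GC content and length it was 2 and 6.

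PRMT5, the main enzyme of symmetric arginine dimethylation, which methylates Sm proteins of the spliceosome (hg38 chr14:22920525-22929408, minus strand), measured 77.3, 76.3, 75.4 and 76.6 RPKM in the controls and 54.9, 55.2, 55.5 and 56.8 RPKM after SB. Both groups were tight, and the lowest control lay far above the highest SB-treated library. The difference was -0.45 ± 0.030 (limma adjusted p = 2.08e-06), the lowest value of any member, and -0.42 after correction for GC content and length.

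PRMT1, which makes most asymmetric dimethylarginine (hg38 chr19:49675786-49689029, plus strand), was the most abundant member, at 116, 139, 136 and 141 RPKM in the controls and 98.8, 99.6, 101 and 98.4 RPKM after SB. Control replicate 1 was the lowest control and still above every SB-treated library. The difference was -0.41 ± 0.060 (limma adjusted p = 0.000214), with a mean of 133 ± 11.7 against 99.4 ± 1.12 RPKM (SD, n = 4).

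PRMT3, which modifies a protein of the small ribosomal subunit (hg38 chr11:20387558-20509338, plus strand), measured 43.1, 34.6, 33.6 and 34.6 RPKM in the controls and 27.9, 26.5, 27.1 and 27.4 RPKM after SB. Control replicate 1 was high, and the other 3 controls were also above all SB-treated libraries. The difference was -0.40 ± 0.071 (limma adjusted p = 0.000756). PRMT9, which methylates the splicing factor SF3B2, fell by 0.40, from 6.14 to 4.42 RPKM (limma adjusted p = 1.62e-05), PRMT7 by 0.28 and CARM1, a coactivator of nuclear receptors, by 0.16. The groups overlapped for CARM1 (exact permutation test, two-sided, p = 0.0571, n = 4 per group).

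PRMT2 went the other way. This enzyme, with weak activity of its own and an SH3 domain (hg38 chr21:46635595-46665124, plus strand), measured 8.13, 8.26, 8.25 and 8.16 RPKM in the controls and 13.1, 13.3, 13.4 and 13.1 RPKM after SB. Neither group spread by more than a few percent, and control replicate 1 did not stand apart. The difference was 0.63 ± 0.030 (limma adjusted p = 3.85e-07), a 1.61-fold rise from 8.20 ± 0.0652 to 13.2 ± 0.157 RPKM (SD, n = 4), and ranked 324 of 14526 genes from the largest rise down (667 by absolute size). After correction for GC content and length it was 0.497. PRMT6, which methylates H3 at R2 and counters H3K4 methylation, rose by 0.15 (limma adjusted p = 0.00596).

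The listed binding partners of the PRMTs were mostly lower, with the same count in every scaling and with any library left out. Of 7, 6 were lower and 1, BTG2, was higher by 0.32 (named after its value was seen), with a median of -0.36. Over all genes 32.6% were lower, with 36.3% under 6000 bases, 40.2% at 1500 to 3000 bases and 51.9% under 1500 bases. The kinase RIOK1, a PRMT5 adaptor, fell by 0.65, from 44.4 ± 3.97 to 27.8 ± 1.06 RPKM (SD, n = 4, limma adjusted p = 1.18e-05). WDR77 (MEP50), the obligate partner of PRMT5 in the methylosome, fell by 0.61, from 72.4 ± 3.95 to 47.2 ± 0.207 RPKM (limma adjusted p = 2.68e-06).

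Demethylases moved less than the writers, with a median absolute difference of 0.14 against 0.25 for the lysine methyltransferases and other SET proteins and 0.40 for the PRMTs. Of 18, 7 were higher, 4 lower and 7 did not pass, with a median of 0.06, where 33.0% of all genes were higher and 32.6% lower. The difference between these classes was not tested.

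Both amine oxidases fell. KDM1A (LSD1), which removes mono- and dimethyl marks from H3K4 (hg38 chr1:23019443-23083689, plus strand), measured 104, 99.0, 101 and 97.9 RPKM in the controls and 79.8, 80.3, 80.0 and 80.1 RPKM after SB. The SB-treated libraries were almost identical and far below the controls. The difference was -0.32 ± 0.033 (limma adjusted p = 2.15e-05). KDM1B fell by 0.15 (limma adjusted p = 0.0282), or by 0.10 without control replicate 1, and its difference was 0.029 with equal RPKM totals. Of 11 subunits listed for the CoREST complex of KDM1A, 1 was higher, 5 lower and 5 did not pass, with RCOR2 lower by 0.40. The shares of all genes were 33.0% higher and 32.6% lower. With equal RPKM totals, which made 75.4% of all calls higher, 5 of the list were higher and 2 lower. After correction for GC content and length, 1 was higher and 8 lower.

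The KDM5 enzymes, which erase the trimethyl mark of H3K4, moved in opposite directions. KDM5B (hg38 chr1:202724495-202808487, minus strand) measured 19.2, 19.3, 20.2 and 19.7 RPKM in the controls and 15.8, 15.3, 15.4 and 15.8 RPKM after SB. Every control exceeded every SB-treated library. The difference was -0.31 ± 0.033 (limma adjusted p = 2.73e-05) and -0.40 after correction for GC content and length.

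KDM5A (hg38 chr12:280057-389320, minus strand) measured 7.89, 7.85, 7.84 and 7.88 RPKM in the controls and 9.35, 8.83, 8.98 and 9.15 RPKM after SB. The controls were nearly identical and all below the SB-treated libraries. The difference was 0.18 ± 0.031 (limma adjusted p = 0.000599), 0.08 after correction. The log2 ratio of KDM5A to KDM5B rose by 0.54 (exact permutation test, two-sided, p = 0.0286), from a ratio of 0.401 to 0.582. KDM5C, at 0.11, did not pass and was at -0.054 after correction.

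KDM6A (UTX), which erases H3K27 methylation and is a subunit of the KMT2C and KMT2D complexes (hg38 chrX:44873188-45112779, plus strand), measured 21.7, 19.1, 18.0 and 19.7 RPKM in the controls and 15.7, 16.1, 15.2 and 15.9 RPKM after SB. All controls were above all SB-treated libraries. The difference was -0.30 ± 0.053 (limma adjusted p = 0.00078) and -0.33 after correction for GC content and length, whereas with equal RPKM totals it was -0.12, which did not pass. Its relative KDM6B was at 0.04, which did not pass. After correction for GC content and length KDM6B was at -0.18 and was called lower (limma adjusted p = 0.000192).

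KDM2A, a demethylase of dimethylated H3K36 that binds CpG islands through a zinc finger (hg38 chr11:67119263-67258082, plus strand), measured 12.8, 13.9, 14.4 and 14.3 RPKM in the controls and 18.7, 18.8, 19.0 and 18.6 RPKM after SB. The SB-treated libraries lay together, well above the controls. The difference was 0.41 ± 0.041 (limma adjusted p = 2.06e-05), the highest of the demethylases, and 0.25 after correction. KDM2B, a subunit of a variant Polycomb complex, rose by 0.17, with 0.01 after correction.

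Of the 8 JmjC enzymes placed with H3K9, 4 were higher and 0 were lower by limma, against 33.0% and 32.6% of all genes. KDM3B (hg38 chr5:138352685-138437028, plus strand) measured 15.4, 17.1, 16.3 and 17.1 RPKM in the controls and 20.08, 19.98, 20.04 and 20.23 RPKM after SB. The lowest SB-treated library was above all controls, and the difference was 0.27 ± 0.040 (limma adjusted p = 0.000243), 0.14 after correction. KDM4B, KDM4D and PHF8 were higher by 0.20, 0.12 and 0.09 (PHF8 at limma adjusted p = 0.0454, past the threshold only with all libraries or without control replicate 1 or 4; KDM4B at 0.02, which did not pass, after correction for GC content and length), and KDM3A, KDM4A, KDM4C and KDM7A, between -0.08 and 0.01, did not pass. After correction for GC content and length the 8 split into 2 higher and 5 lower, and PHF8 was at -0.059, so no direction holds for the role.

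**Figure D2:**
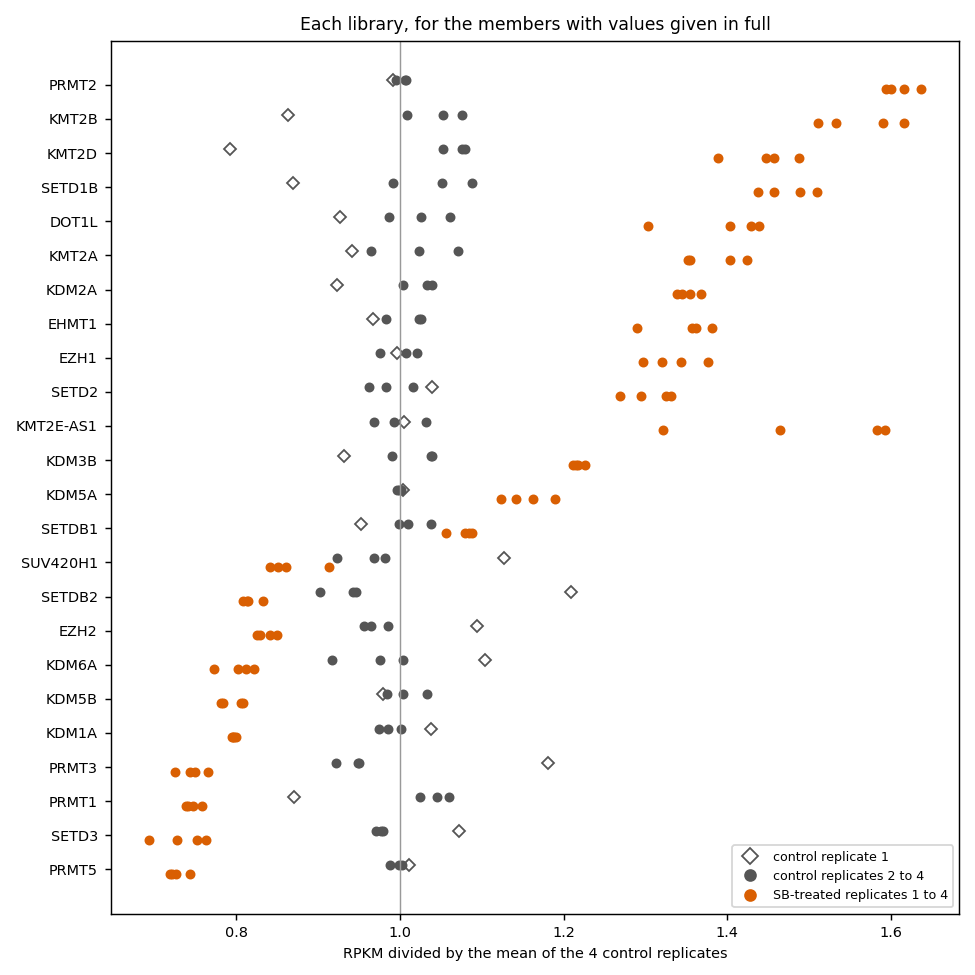
RPKM of each library divided by the mean of the 4 controls, for the 24 members whose values are given in full. Open diamonds are control replicate 1, dark circles the other controls and orange circles the SB-treated replicates. The orange points lie above all controls for 14 genes and below them for 10 genes. Control replicate 1 is an outlying control for KMT2D, SETDB2, PRMT3 and SETD3. It is also the highest or lowest control for other genes, among them KMT2B, PRMT1 and EZH2.

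The 2 antisense RNAs were both higher. KMT2E-AS1 (hg38 chr7:105013277-105014321, minus strand) measured 1.14, 1.12, 1.17 and 1.09 RPKM in the controls and 1.80, 1.79, 1.65 and 1.49 RPKM after SB. The groups did not overlap, and the difference was 0.33 ± 0.043 (limma adjusted p = 0.000104). It shares 158 exon bases with KMT2E, which was called lower, and its counted length of 3600 bases is above the 823 bases of its longest GENCODE transcript, so the reads counted need not all come from the locus given. KDM4A-AS1, at 0.14 (limma adjusted p = 0.0265), shares 473 exon bases with KDM4A. The kit kept the strand of the RNA, but the strand setting of the counting is not given in the sources used here, so reads of these genes and of their partners cannot be told apart. The same limit holds for other members that share exon bases with a gene on the opposite strand. For example, PRMT7 shares 1931 with SMPD3, SETDB1 948 with CERS2, PRMT5 924 with PRMT5-AS1 and CARM1 891 with YIPF2.

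For related enzymes, the ratio within each library was compared for 15 pairs, without adjustment over the pairs. The groups did not overlap for 11 of them, each at the smallest exact p of 0.0286, where 61.5% of all single genes did not overlap and the share over gene pairs was not computed. Among the 11, KMT2A over KMT2B differed by -0.18. After correction for GC content and length this pair was at -0.030 and no longer passed (exact permutation test, two-sided, p = 0.314). Besides EZH1 over EZH2 and KDM5A over KDM5B, the ratio of SETDB1 to SETDB2 rose from 3.30 to 4.33, a difference of 0.39 on the log2 scale. The log2 ratios of KDM3A to KDM3B, KDM6A to KDM6B and SETD1A to SETD1B fell by 0.37, 0.36 and 0.32, and after correction for GC content and length the first and second fell by 0.24 and 0.15. For SUV39H1 over SUV39H2 (0.19), KMT2C over KMT2D (-0.15), SUV420H1 over SUV420H2 (-0.10) and SMYD2 over SMYD3 (0.00) the groups overlapped, with exact permutation p-values (two-sided, n = 4 per group) of 0.0857, 0.143, 0.486 and 1. Without control replicate 1 the first 3 of these were 0.074, -0.049 and 0.050.

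**Figure D3:**
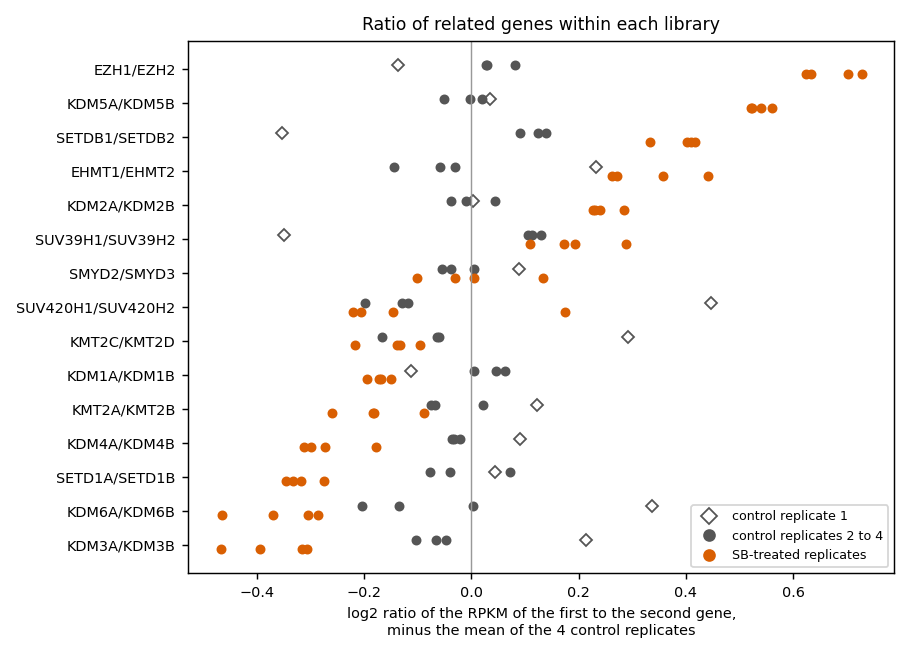
Log2 ratio of the RPKM of related genes in each library, minus the mean of the 4 controls, for 15 pairs. Open diamonds are control replicate 1, dark circles the other controls and orange circles the SB-treated replicates. EZH1 over EZH2 is shifted by 0.67 and KDM5A over KDM5B by 0.54, whereas SMYD2 over SMYD3 lies at 0.00.

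Transcript length and the direction of change went together. The Pearson correlation of the log2 difference with the log2 counted length was 0.584 (Spearman 0.595) over the 61 members and 0.282 (0.301) over all 14526 genes, and with GC content it was 0.395 over the members and 0.125 over 14090 genes. These are descriptions across genes that share libraries, and genes are not independent replicates. Of the 27 members of 6000 bases or more, 16 were higher and 4 lower, with a median of 0.23. Of all genes of that length, 50.3% were higher and 16.1% lower, with a median of 0.11. Of the 34 shorter members, 9 were higher and 17 lower, with a median of -0.12, where 29.1% and 36.3% of all shorter genes were called. Among members of 6000 bases or more, 12 of 18 methyltransferases and 4 of 9 demethylases were higher. The PRMTs that fell were short, with 1568 counted bases for PRMT1, and PRMT2, which rose, had 7953, against 4031 in its longest GENCODE transcript. PRMT6, which also rose, was short, with 2652 counted bases. The high share of H3K4 and H3K36 enzymes called higher therefore coincides with their length, and its part in the result was not tested beyond the corrected values given above.

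**Figure D4:**
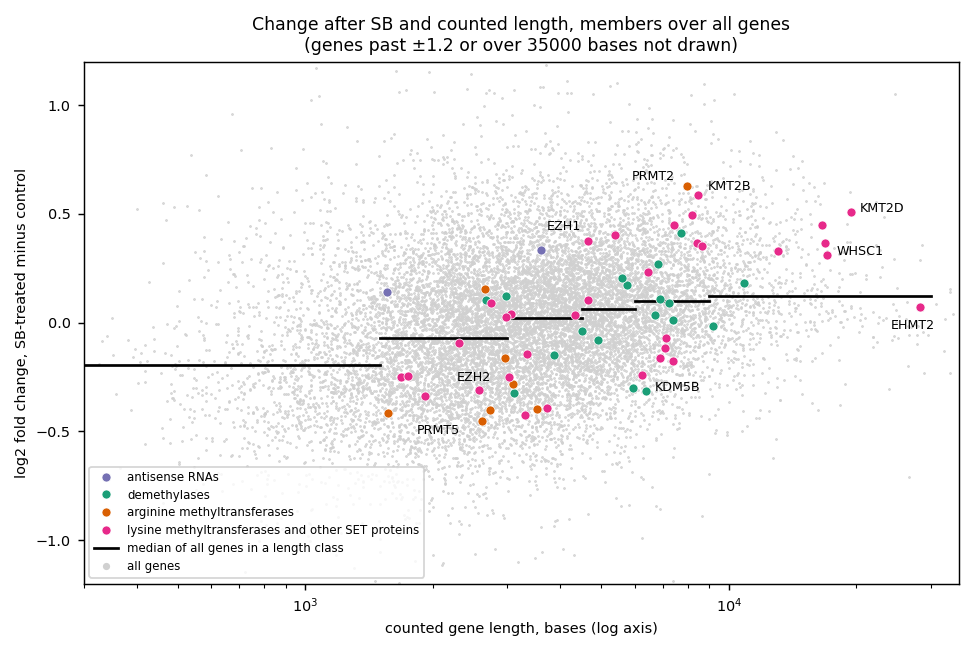
Difference between SB-treated and control libraries (log2 of RPKM + 1) against counted gene length on a log axis, for all genes (grey) and the members (coloured by class). Black bars are the medians of all genes in 6 length classes, from -0.19 under 1500 bases to 0.12 at 9000 bases or more. PRMT2, KMT2B and KMT2D lie at the upper right and PRMT5 at the lower left, while KDM5B, at 6383 bases, lies low.

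The proteins that work with H3K4 methyltransferases moved both ways. Of 15 listed COMPASS and MLL complex partners, 5 were higher, 4 lower and 6 did not pass, with a median of 0.02. Among all genes 33.0% were higher and 32.6% lower. With equal RPKM totals, which made 75.4% of all calls higher, 9 partners were higher and 3 lower. The 2 with the largest differences fell: PSIP1 (LEDGF), which tethers the KMT2A complex to chromatin, by 0.47, from 67.3 ± 11.95 to 47.9 ± 1.81 RPKM, and BOD1 by 0.46, from 81.5 ± 7.82 to 58.9 ± 2.16 RPKM (SD, n = 4).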

How the data were processed

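RNA from 8 cultures, 4 control and 4 SB-treated, grouped by the titles in the labels, was sequenced as 50-base single reads from a stranded total RNA kit. The authors mapped reads to hg38 with TopHat2 2.1.0, counted them per gene with featureCounts 1.5.0, dropped genes that did not exceed 1 CPM in 2 or more samples, scaled libraries by TMM in edgeR 3.16.5 and deposited RPKM values per gene and library. The deposited table also holds a mean log2 CPM per gene, used here to find the counted length, and the authors' own comparison (log2 fold change, p-value and FDR), which was not used. Read counts per gene, recovered from the RPKM values as whole multiples of 1 read, were whole for 100% of 14526 genes within 0.001 reads, and a single length fitted 99.9% of them. The depth of 37010896 to 44903216 reads left every member with a mean of at least 75 reads per library in each group.

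Differences were tested with limma 3.58.1 (R 4.3.3; lmFit and eBayes) on log2(RPKM + 1), a scale that understates the change of low genes, over all genes and with Benjamini-Hochberg adjustment. Ratios of paralogs, without pseudocount, were tested with exact permutation tests that went through every split of the libraries (Python 3.11.15, numpy 2.4.6). Correlations of the log2 difference with length and GC content used scipy 1.17.1. Positions are from GENCODE 44, and promoter sequences from RefSeq (GRCh38.p14), matched by symbol. GC content was available for 97.0% of genes. Of 68 enzyme symbols listed by role, 59 had a row; NSD2, NSD3, KMT5A, KMT5B and KMT5C appear under older names. Of the members, 31 share exon bases with another annotated gene, 17 of them with a protein-coding gene.

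Values are given per library for the 12 members with the largest called differences, for the leading called member of every role, for EZH1 and EZH2 and for paralog pairs called in opposite directions, 24 members in all. Up to 2 genes are named from each list of partners, with the core PRC2 subunits, JARID2, MTF2, AEBP2 and BTG2 added after their values were seen. The members, lists and the length of 6000 bases were chosen with earlier results of these data known. Alternatives were a pseudocount of 0.1, equal RPKM totals, median-of-ratios scaling, a mean RPKM of at least 0.5, correction for GC content and length, an intensity trend, voom on the recovered counts, a block for the replicate number, and fits without each library in turn. Scripts were tested on simulated data. Values of some listed genes are not reported here, and the ChIP-seq part of the study was not analysed here.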

Additional observations from a re-analysis of the deposited data

Results flagged for a closer look

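In 122 groups of 4 replicate values (61 members in 2 groups), the gap of the highest or lowest value to its neighbour, as a share of the whole range, passed Dixon's 95% limit for 4 values in 16, where chance alone gives about 6.1. In 15 of the 16 the outlying library was control replicate 1. It was the highest control for SETD3 (0.921), SETD8 (0.898), KDM1B (0.890), SUV39H2 (0.880), PRMT3 (0.880), SETD9 (0.845), SETDB2 (0.837) and WHSC1L1 (0.833). It was the lowest control for KMT2D (0.920), PRMT7 (0.898), SETD1A (0.876), KDM4B (0.874), EHMT2 (0.868), KDM5C (0.859) and SUV39H1 (0.836). The other was SB-treated replicate 1, the lowest of its group for SUV420H2 (0.845). Without control replicate 1, SETDB2 was lower by 0.16 in place of 0.24 and KDM1B by 0.10 in place of 0.15, and both remained past the threshold.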

How the results depend on the processing

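Of the 46 called members, 28 kept their direction and stayed past the threshold in every alternative. The replicate number paired the libraries only in part (correlations of same-numbered deviations 0.38, 0.327, 0.173 and -0.16). The same-numbered SB-treated library was the closest match for control replicates 1 and 2 but not for 3 and 4. As a block, the replicate number gave 23 higher and 21 lower members, with SETDB1 (limma adjusted p = 0.0511) and PHF8 (0.0626) lost. Leaving out each library gave 22 to 26 higher, 19 to 25 lower and 2 to 4 past 0.5. It ended the calls of PHF8 (limma adjusted p up to 0.111), SETDB1 (0.0700, SB-treated replicate 2), KDM4A-AS1 (0.0747, SB-treated replicate 4), KDM1B (0.0661, SB-treated replicate 2), SUV39H2 (0.0779, SB-treated replicate 2) and CARM1 (0.0533, SB-treated replicate 1). Without control replicate 1, KDM4A, SETD5, SETD8, SUV420H2 and WHSC1L1 passed, at -0.080, -0.078, 0.125, -0.176 and -0.060. Equal RPKM totals, which moved the median of all genes by 0.14 and made 75.4% of all calls higher (50.2% as deposited), gave 37 higher and 10 lower members and 13 past 0.5, and EZH2, KDM6A, PRMT7, SETDB2, SMYD2, SMYD3 and SUV420H1 no longer passed. Read totals without TMM factors, chosen after seeing the data, gave 30 and 15 (65.1% of all calls higher) and 8 past 0.5, and CARM1, KDM1B, KMT2E, SETDB2, SUV39H2 and SUV420H1 no longer passed. Correction for GC content and length gave 23 higher and 30 lower (21 and 29 with the block). It left 0 members past 0.5 by limma, with or without the block, and SETD1A, KDM2B, KDM4B, SETDB1 and SMYD3 no longer passed (with the block, nor did KDM5A). A pseudocount of 0.1, and voom with or without the block, gave 5 past 0.5, and PHF8 and KDM4A-AS1 respectively no longer passed.

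Signs turned, with the cause not tested, as follows. Equal RPKM totals, to be read against a median of all genes of 0.14, gave CARM1 0.023, KDM1B 0.029, KDM3A 0.093, KDM4A 0.14, KDM7A 0.16, KMT2E 0.011, SETD5 0.11, SUV39H2 0.037, SUV420H2 0.075 and WHSC1L1 0.064. Totals without TMM gave KDM3A 0.018, KDM4A 0.062, KDM7A 0.085, SETD5 0.034 and SUV420H2 0.000906. GC and length correction, with and without the block, gave EHMT2 -0.13, KDM4C -0.10, KDM5C -0.054, KDM6B -0.18, PHF8 -0.059 and SMYD4 -0.035, and without the block SMYD2 over SMYD3 -0.032. With this correction EHMT2, KDM4C and KDM6B were called lower with and without the block, and PHF8 only without it. Leaving out libraries, KDM4C ran from -0.013 to 0.041, KDM6B from -0.020 to 0.068, KDM7A from -0.032 to 0.022, SUV39H1 from -0.024 to 0.066, SUV420H1 over SUV420H2 from -0.19 to 0.050 and SMYD2 over SMYD3 from -0.042 to 0.036.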

Other observations

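Proteins that read methyl-lysine marks moved both ways. Of 22 listed HP1, Polycomb and other readers, 8 were higher, 6 lower and 8 did not pass, with a median of -0.02. Among all genes 33.0% were higher and 32.6% lower. With equal RPKM totals, which made 75.4% of all calls higher, 13 readers were higher and 2 lower. ZMYND11, which binds trimethylated H3K36 on the histone variant H3.3, rose by 0.59, from 7.73 ± 0.840 to 12.1 ± 0.425 RPKM (SD, n = 4, limma adjusted p = 3.12e-05). ING2, which binds trimethylated H3K4 in a deacetylase complex, fell by 0.53, from 5.19 ± 0.528 to 3.29 ± 0.282 RPKM (limma adjusted p = 9.78e-05).

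Of 11 listed genes for the supply and recycling of S-adenosylmethionine, the methyl donor of all these transferases, 3 were higher, 6 lower and 2 did not pass, with a median of -0.13. Among all genes 33.0% were higher and 32.6% lower. With equal RPKM totals, which made 75.4% of all calls higher, 4 of the 11 were higher and 2 lower. MAT2A, the catalytic subunit of the synthetase outside liver, rose by 0.44, from 47.3 ± 1.54 to 64.6 ± 1.43 RPKM (SD, n = 4, limma adjusted p = 6.21e-06). AHCYL1, a relative of the hydrolase that clears the product S-adenosylhomocysteine, fell by 0.49, from 64.3 ± 1.76 to 45.6 ± 0.620 RPKM (limma adjusted p = 2.31e-06).

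Of 13 methyltransferases and JmjC proteins listed as lying outside the choice by name and with a row, 6 were higher, 3 lower and 4 did not pass, a count that includes KDM7A, which is also among the 61. Among all genes 33.0% were higher and 32.6% lower. PHF2, a JmjC protein related to PHF8, rose by 0.65, from 8.33 ± 0.106 to 13.6 ± 0.210 RPKM (SD, n = 4, limma adjusted p = 3.85e-07), and JMJD1C, a relative of KDM3A, by 0.51, from 11.1 ± 1.02 to 16.2 ± 0.265 RPKM (limma adjusted p = 3.39e-05).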
